A study of Mus musculus with 12 samples.

Results

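The data are the m6A peaks that the authors' annotation places in introns, taken from testes of mice at postnatal day 18. Every row of both peak lists with the annotation "intronic" was a member, which gave 1282 of 32277 peaks in the KO list and 1347 of 33078 peaks in the WT list, 2629 of 65355 in all. The KO list compares immunoprecipitated (IP) with input libraries of Alkbh5 knockout (KO) testes, and the WT list does the same for wild-type (WT) testes, with 3 replicates of each library type and genotype, 12 libraries in all. Both groups were whole testes of the same age, so each list mixes germ cells with Sertoli, Leydig and other somatic cells. The labels name no strain, allele or Cre driver, and do not say whether animals were pooled.

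N6-methyladenosine (m6A) is the most common internal mark of messenger RNA. It is written on nascent transcripts, so a part of it lies in introns that are later spliced out, while most m6A of polyadenylated RNA sits near stop codons and in 3' UTRs. ALKBH5 is a nuclear enzyme that removes the methyl group, and mice without it have impaired spermatogenesis. YTHDC1, a nuclear reader of m6A, and several splicing regulators act on intron-containing RNA. The study asked how the m6A map changed without Alkbh5. Because polyadenylated RNA was selected before the IP, an intronic peak can come from RNA with a poly(A) tail that still held intron sequence. It can also come from a transcript for which that sequence is exonic, or from another transcript on the same strand. Some peaks may be false calls, which was not tested. An FDR above 0.05 was listed for 33.8% of intronic peaks in the KO list and 29.8% in the WT list. These sources cannot be told apart with the lists.

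The deleted gene was examined first. Alkbh5 had 0 peaks in the KO list and 3 in the WT list, none of them intronic, so it adds no member. The lists give 1 value per peak and genotype, so depth per library and replicate error are unknown. The fold given below is the authors' ratio of IP over input for a peak, the false discovery rate (FDR) is theirs as well, and both were made separately for each genotype. Intervals are Wilson or Newcombe 95% intervals, which treat peaks as independent and cover counting error only. Of the defining markers looked for, 4 of 6 for spermatocytes had a peak in each list, as had 2 of 4 for Leydig cells. For round spermatids it was 2 of 5 in the KO list and 1 of 5 in the WT list, and for Sertoli cells 4 of 5 in the KO list and 5 of 5 in the WT list. For spermatogonia it was 3 of 5 in the KO list and 4 of 5 in the WT list, and for endothelial and immune cells 2 of 4 in each.

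A few intronic peaks lay on the start of a second transcript or gene annotated by RefSeq, and their sequences show what such a peak covers. Of 32851 promoter windows (250 bases before to 50 bases after a start), intronic peaks touched a window in 14 KO cases and 15 WT cases and covered the start itself in 5 cases of each list. Sequences are from the RefSeq promoter table (GRCm38.p6), 5' to 3' on the strand of the peak, cut to the bases that the peak shares with the window. Capitals mark the motif GGAC followed by any base but G, a core of the m6A consensus, searched on the strand of the peak alone. The 6 shown are those that cover a start, without the KO peak at Tbc1d23 (chr16:57201109-57208162, minus strand), whose span is long and whose whole window held no motif. The 2810013P06Rik stretch (chr8:123042466-123042624, plus strand) lies in Galnt2l as the authors drew that gene. The Vegfa stretch (chr17:46025114-46025323, minus strand) and the Rex1bd stretch (chr8:70506377-70506453, minus strand) lie at starts inside their own genes. The others are Gm15708 (chr5:144277061-144277110, plus strand), BC048644 (chr8:121907833-121907882, plus strand) and Gm38440 (chr1:153899727-153899871, minus strand).
2810013P06Rik, both lists: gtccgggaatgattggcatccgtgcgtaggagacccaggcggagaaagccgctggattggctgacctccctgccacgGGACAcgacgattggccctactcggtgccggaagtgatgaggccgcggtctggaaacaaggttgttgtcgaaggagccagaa
Vegfa, KO peak: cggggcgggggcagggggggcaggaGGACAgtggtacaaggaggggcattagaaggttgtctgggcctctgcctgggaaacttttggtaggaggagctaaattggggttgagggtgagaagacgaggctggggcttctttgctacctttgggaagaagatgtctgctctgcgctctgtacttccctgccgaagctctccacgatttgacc
Rex1bd, KO peak: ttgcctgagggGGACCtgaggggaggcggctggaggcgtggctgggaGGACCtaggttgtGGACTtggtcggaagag
Gm15708, WT peak in Bri3: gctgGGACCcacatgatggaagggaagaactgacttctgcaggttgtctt
BC048644, WT peak in Galnt2l: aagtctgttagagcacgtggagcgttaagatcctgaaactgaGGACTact
Gm38440, WT peak in Teddm2: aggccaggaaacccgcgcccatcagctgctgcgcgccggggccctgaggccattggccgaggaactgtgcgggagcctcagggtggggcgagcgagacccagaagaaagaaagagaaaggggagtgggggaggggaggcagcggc

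The motif count differed among these stretches. Rex1bd held 3, 2810013P06Rik, Vegfa, Gm15708 and BC048644 held 1 each, and Gm38440 held 0. In all windows cut to the same positions, at least 1 motif was present in 21.8% for Rex1bd, 39.1% for 2810013P06Rik, 47.7% for Vegfa, 15.4% for Gm15708, 15.4% for BC048644 and 36.3% for Gm38440. A match shows letters only, and the peaks reach beyond the windows. Vegfa encodes the main growth factor of blood vessels. Its intronic peak had a fold of 24.4 in the KO list (46024679 to 46025323) and 46.3 in the WT list (46024649 to 46025293). The WT peak shared the last 180 of the 210 bases printed, and these did not include the motif. The 2810013P06Rik peak had a fold of 7.90 with log10 FDR -56.0 in the KO list and 13.0 with log10 FDR -88.6 in the WT list, and the Gm38440 peak had folds of 10.8 and 12.0. The Rex1bd peak had a fold of 8.57 in the KO list, the Gm15708 peak 8.02 in the WT list and the BC048644 peak 3.12 in the WT list. The Rex1bd peak met a WT peak annotated as coding exon. The KO partners at Gm15708 (in Bri3, fold 3.75) and at BC048644 (in Galnt2l, fold 8.57) began downstream of the stretches printed. None of 1005 RefSeq miRNA hairpins lay under an intronic peak of either list.

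Intronic peaks were a small class in both genotypes. They made up 3.97% (3.76 to 4.19) of the KO list and 4.07% (3.86 to 4.29) of the WT list, and the difference of -0.10 points had an interval from -0.40 to 0.20. With an FDR of 1e-05 or below in both lists, the difference was -0.35 points (-0.63 to -0.08). Their enrichment was like that of other peaks, with a median fold of 6.32 in the KO list and 6.25 in the WT list, against 6.32 and 6.02 for all other peaks of the same lists. Their spans were shorter than those of other peaks, at a median of 209 bases in the KO list and 210 bases in the WT list, against 390 and 380 bases. Spans over 1000 bases, which include any intron between exons of a spliced peak, were 4.52% of intronic peaks in the KO list and 4.01% in the WT list, against 24.7% and 22.8% of other peaks. The difference from other peaks was -20.1 points (-21.3 to -18.8) in the KO list and -18.8 points (-19.8 to -17.5) in the WT list.

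Intronic peaks carried weaker statistical evidence than other peaks. An FDR above 0.05 was listed for 33.8% of intronic peaks in the KO list and 29.8% in the WT list, against 14.4% and 14.1% of other peaks, a gap of 19.4 points (16.8 to 22.1) and 15.7 points (13.3 to 18.2). An FDR of 1e-05 or below was listed for 259 intronic KO peaks (20.2%) and 321 intronic WT peaks (23.8%), against 53.5% and 52.5% of other peaks. Folds also clustered at a few values. The 6 commonest folds held 32.2% of the intronic peaks in the KO list and 30.8% in the WT list, against 16.6% and 16.4% of other peaks. The commonest was 6.32 in the KO list, with 126 peaks, and 6.48 in the WT list, with 118 peaks.

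Peaks were next matched between genotypes. A peak with at least 1 base of overlap on the same strand with a peak of the other list was counted as shared, and otherwise as KO-only or WT-only. Of the intronic peaks, 443 in the KO list (34.6%, 32.0 to 37.2) and 516 in the WT list (38.3%, 35.7 to 40.9) had no partner. Over all peaks, 19.3% of the KO list and 21.6% of the WT list had none. The excess over all other peaks was 15.9 points (13.3 to 18.5) in the KO list and 17.4 points (14.8 to 20.1) in the WT list. With an FDR of 1e-05 or below in both lists, the KO excess was 3.31 points (-0.66 to 8.28), an interval that includes 0. The WT excess at that limit was 19.5 points (14.6 to 24.8). The next highest class was the 5' UTR in the KO list, with 25.2%, and the noncoding exon in the WT list, with 35.5%. Noncoding exon peaks of the KO list stood at 23.0%. Intronic peaks exceeded noncoding exon peaks by 11.5 points (8.69 to 14.4) in the KO list and by 2.80 points (-0.06 to 5.71) in the WT list, where the interval includes 0.

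The weaker FDR of intronic peaks moved with this excess. When the rates of other peaks within 4 FDR classes were weighted by the FDR mix of intronic peaks, 32.6% of other peaks in the KO list and 33.2% in the WT list would lack a partner, against the observed 34.6% and 38.3% of intronic peaks. In the class above 0.05, 260 of 433 intronic KO peaks (60.0%) and 271 of 401 intronic WT peaks (67.6%) had no partner, against 56% and 58.2% of all peaks in that class. The WT excess over other peaks there was 10.3 points (5.31 to 14.9), and the KO excess was 4.49 points (-0.41 to 9.23). Between 0.05 and 1e-05 the shares were 30.2% of 590 KO peaks and 34.7% of 625 WT peaks, against 27.5% and 31.5% of all peaks. KO-only peaks had a median span of 121 bases against 241 bases for shared KO peaks, and WT-only peaks 150 bases against 269 bases for shared WT peaks.

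The lists parted among intronic peaks of low FDR, a comparison chosen after its values were seen. With 1 list per genotype, its intervals cover the counting of peaks and not the spread among animals. At 1e-05 or below, 5 of 259 intronic peaks in the KO list had no WT partner (1.93%, 0.83 to 4.44), against 28 of 321 in the WT list without a KO partner (8.72%, 6.10 to 12.3). Over all peaks of that FDR, 3.57% of the KO list and 4.5% of the WT list had none. The KO minus WT difference was -6.79 points (-10.6 to -3.17) among intronic peaks and -0.82 points (-1.24 to -0.40) among other peaks. The intronic difference minus the other one was -5.97 points (-9.76 to -2.32). Other peaks pool classes that went opposite ways. At any FDR, 23.0% of noncoding exon peaks in the KO list and 35.5% in the WT list had no partner. For coding exon peaks these shares were 21.6% and 15.1%. The low-FDR difference was not computed for each class, so it is not shown to be particular to introns. Without spans over 1000 bases, the intronic difference was -5.85 points and its interval (-11.8 to 0.35) included 0. Within 1e-05 to 1e-20 the counts were 5 of 200 KO peaks (2.5%) and 26 of 252 WT peaks (10.3%), beside 7.31% and 8.3% of all peaks. At 1e-20 or below they were 0 of 59 KO peaks, for which 3 counts would be a share of 5.08% and the Wilson interval reaches 6.11%, and 2 of 69 WT peaks (2.90%), beside 0.941% and 1.6% of all peaks. Seen from the other side, intronic peaks were 0.83% of the 601 KO-only peaks of low FDR and 3.67% of the 763 WT-only ones, a difference of -2.84 points (-4.49 to -1.27). Without the FDR limit the shares were 7.10% and 7.23%.

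**Figure D1:**
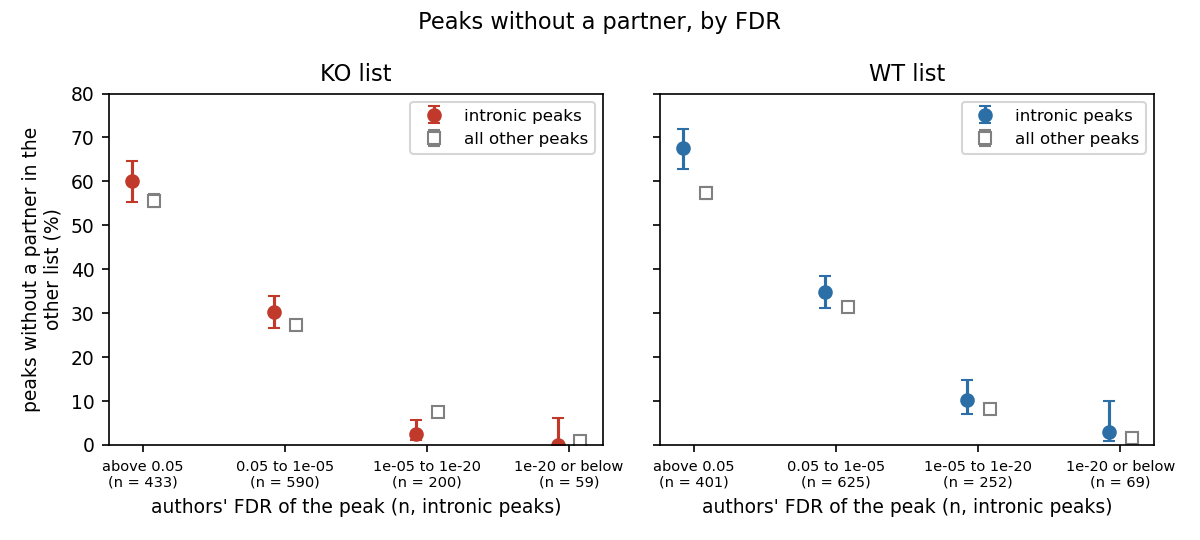
Percentage of peaks without a partner in the other list by FDR class of the authors, for intronic peaks (filled circles) and all other peaks (open squares), with the KO list on the left and the WT list on the right; bars are Wilson 95% intervals. The share falls with FDR in both lists, and for intronic peaks between 1e-05 and 1e-20 it is 2.5% in the KO list and 10.3% in the WT list.

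The 5 KO-only intronic peaks of low FDR lay in Cops5, Vrk3, Map3k10, Etnk2 and Hnrnpu. Cops5, the catalytic subunit of the COP9 signalosome, had a 61-base peak of fold 14.0 (chr1:10037570-10037630, minus strand), 568 bases from the gene start at its midpoint, and no peak of any class in the WT list. Vrk3, a kinase-like gene, had a KO peak of fold 6.02 (chr7:44759189-44759369, plus strand) and a WT-only intronic peak of fold 4.17 elsewhere in the gene. Map3k10, a kinase of the JNK pathway, had fold 4.86, and Etnk2, an ethanolamine kinase, had fold 2.15. Hnrnpu, a nuclear matrix and splicing protein, had the lowest FDR of the 5 (log10 FDR -19.4) at a fold of 1.74 (chr1:178336171-178336291, minus strand). Of these 5 genes, 4 had some peak in the WT list.

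The 28 WT-only intronic peaks of low FDR lay in 28 genes. Of these genes, 24 had a peak of some class in the KO list and 5 had an intronic one, and 3 of the 28 peaks had a KO peak within 200 bases. Folds had a median of 4.25 and reached 31.5 in Pfn1, which encodes the actin-binding protein profilin 1 (chr11:70653516-70653605, minus strand). The KO list had a single Pfn1 peak, also intronic, of fold 2.79, which met a WT peak in the 5' UTR. Next came Apobec3, an antiviral cytidine deaminase, with fold 14.8 (chr15:79892701-79892851, plus strand). Apobec3 also had 2 intronic KO peaks, of folds 16.2 and 7.22, upstream of it, both of which met WT peaks annotated as 5' UTR. Rnpep, an aminopeptidase, had fold 13.9, and Dera, an aldolase of deoxyribose phosphate, had fold 8.18. Neither gene had a peak in the KO list. Cdc26, a subunit of the anaphase-promoting complex, had fold 9.57, and Osgepl1, a mitochondrial tRNA-modifying enzyme, had fold 8.33. In the KO list Cdc26 had 1 peak and Osgepl1 had 2, all in the 3' UTR. The lowest FDR of the 28 belonged to Ttll8, a tubulin glycylase (log10 FDR -67.2, fold 3.86), and to Rarres2, the precursor of chemerin (log10 FDR -27.6, fold 4.96), both singled out after their values were seen. Chd8, a chromatin remodeller, had log10 FDR -12.7 and fold 3.14, and the KO list had 5 Chd8 peaks, none intronic.

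Most intronic peaks with a partner met another intronic peak. The partner was intronic alone for 723 of 839 shared KO peaks (86.2%, 83.7 to 88.3) and for 706 of 831 shared WT peaks (85.0%, 82.4 to 87.2). Coding exon peaks were the next commonest partner, for 46 KO and 56 WT peaks, followed by 5' UTR peaks, for 30 and 28, and 3' UTR peaks, for 16 and 12. The partner belonged to the same gene in 838 of the 839 KO cases and 828 of the 831 WT cases.

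Among 567 pairs in which 1 intronic KO peak met exactly 1 intronic WT peak, the median fold was 6.02 in the KO list and 6.48 in the WT list. The KO fold was higher in 253 pairs and the WT fold in 314. The median log2 ratio of KO over WT was -0.06, with quartiles at -0.56 and 0.40, and 456 pairs (80.4%) lay within 2-fold. The KO fold was more than 2-fold higher in 45 pairs and the WT fold in 66. Start and end were identical in 61 pairs. No test of these ratios was possible, since each list gives 1 fold per peak and the folds were scaled separately.

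**Figure D2:**
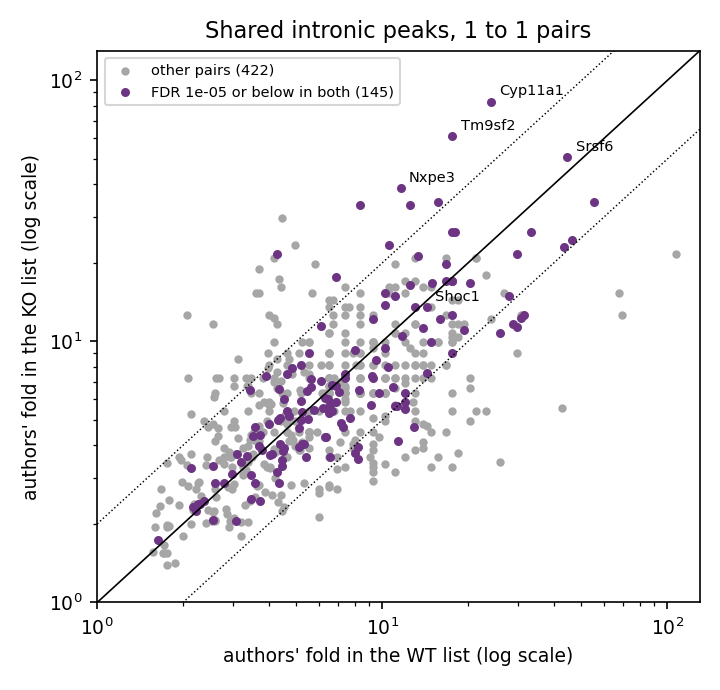
Fold in the KO list (vertical, log scale) against fold in the WT list (horizontal, log scale) for 567 pairs of intronic peaks; the solid line marks equal folds, the dotted lines a 2-fold difference, and purple points have an FDR of 1e-05 or below in both lists. The points scatter about the line of equal folds, with 456 of them between the dotted lines, and Cyp11a1 (83.0 in KO, 24.1 in WT) lies farthest up.

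The shared peaks of highest KO fold were chosen on that fold, so a KO value above the WT value in them carries no weight. Cyp11a1, which starts steroid synthesis in Leydig cells, had 83.0 in the KO list (chr9:58022205-58022355, plus strand) and 24.1 in the WT list. Tm9sf2, a Golgi membrane protein, had 61.4 and 17.6, and this intronic peak was the gene's single peak in each list (chr14:122118027-122118682 in KO). Srsf6, a splicing factor of the SR family, had 51.0 and 44.6, with log10 FDR -93.4 in the KO list and -112 in the WT list (chr2:162932192-162932730 in KO). Wrap73, a centrosomal protein, had 41.5 in the KO list and 7.87 in the WT list for the larger of the WT peaks that it met. Galnt7, a Golgi enzyme that starts O-glycans, had 38.8 and 9.20, and Nxpe3 had 38.8 and 11.6 over the same 1420 bases. The counterpart chosen on the WT fold, after its values were seen, ran the other way. Kcnk10, a potassium channel, had 21.7 in the KO list and 107 in the WT list, Rita1 had 12.6 and 69.4, and Med16, a subunit of Mediator, had 15.3 and 67.6. Pikfyve, a lipid kinase, had 34.3 and 55.5.

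Shoc1 and Hnrnpl, list members with peaks of very low FDR, had similar folds and borders in both lists. Shoc1, a meiotic protein required for crossover formation, had its intronic peak at chr4:59081154-59081933 in the KO list with fold 13.5 and log10 FDR -286, and over 720 bases of the same stretch in the WT list with fold 14.3 and log10 FDR -258. Hnrnpl, a splicing regulator that binds CA-rich RNA, had a pair of neighbouring intronic peaks, with folds 3.64 and 3.44 in the KO list and 3.35 and 3.20 in the WT list.

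The genes that carry intronic peaks were next compared. In the KO list 955 of 15723 genes with a peak (6.07%) had an intronic one, and in the WT list 1034 of 16367 (6.32%). Together 1375 of 17805 genes (7.72%) had one, and 614 had one in both lists, which is 64.3% of the KO hosts and 59.4% of the WT hosts. Of the 341 hosts in the KO list alone, 308 had another peak in the WT list, and of the 420 hosts in the WT list alone, 337 had another peak in the KO list. Genes with a KO-only intronic peak were 2.5% of genes in the KO list, and genes with a WT-only one were 2.93% of genes in the WT list. Most hosts had a single intronic peak, 760 in the KO list and 848 in the WT list, and 61 and 63 had 3 or more. A peak of another class was present in 84.1% (81.6 to 86.3) of KO hosts and 82.0% (79.6 to 84.2) of WT hosts.

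Hosts were long genes. Their median length was 44104 bases in the KO list and 41022 bases in the WT list, against 17907 and 17205 bases for genes with other peaks alone. Under 10 kb, 1.98% of KO genes and 2.08% of WT genes had an intronic peak, and the share was higher in each longer class, with 12.0% and 12.6% at 100 to 300 kb and 15.9% (12.6 to 19.9) and 14.5% (11.3 to 18.3) above 300 kb. The order of the classes was the same in both lists, with overlapping intervals in all 5 classes. No KO minus WT difference by class was computed, so the overlap does not show equal shares.

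Within their genes intronic peaks were most frequent in the part nearest the start. Each gene was cut into 5 equal parts, introns included. Part 1, at the start, held 29.8% (27.4 to 32.4) of them in the KO list and 27.5% (25.2 to 30.0) in the WT list, and each later part held 15.8% to 18.7% in the KO list and 17.8% to 18.3% in the WT list. Other peaks lay in part 5 in 53.3% of KO cases and 53.9% of WT cases, and the intronic share there was lower by 34.7 points in the KO list (difference -34.7, -36.8 to -32.4) and by 36.0 points in the WT list (difference -36.0, -38.1 to -33.8). The first 1000 bases held 125 intronic peaks in each list (9.75% in KO, 9.28% in WT), below the 15.8% and 16.3% of other peaks. The last 1000 bases held 11 and 13 intronic peaks (0.86% in KO, 0.97% in WT), against 31.2% and 33.2% of other peaks. In the KO list part 1 held 31.4% of the peaks without a partner and 29.0% of the shared ones, and in the WT list 26.6% and 28.2%.

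**Figure D3:**
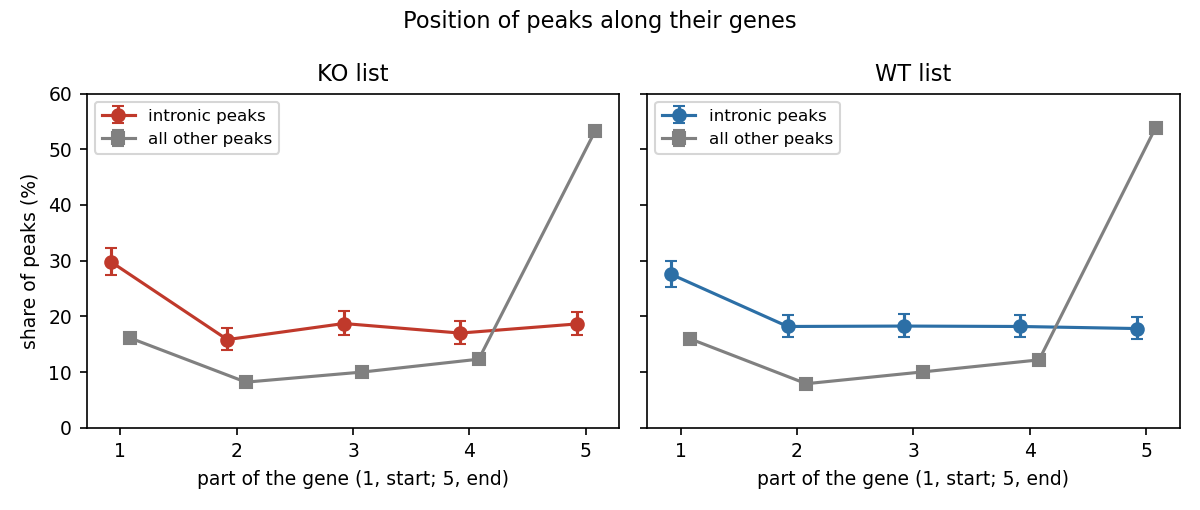
Share of peaks (%) in each of 5 equal parts of the gene from start to end, introns included, for intronic peaks (coloured circles) and all other peaks (grey squares), with the KO list on the left and the WT list on the right; bars are Wilson 95% intervals. Intronic peaks are most frequent in part 1 (29.8% in KO, 27.5% in WT), and other peaks in part 5 (53.3% in KO, 53.9% in WT).

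A single annotation held the most intronic peaks. Galnt2l was drawn by the authors over 4434882 bases of chromosome 8 (119910841 to 124345722, plus strand) and carried 33 intronic peaks in the KO list and 27 in the WT list, with no peak of another class in either. Within that span RefSeq places 75 coding genes, and the lists themselves assign peaks inside it to 33 other genes in the KO list and 32 in the WT list. Of the Galnt2l peaks, 19 in the KO list and 15 in the WT list lay inside another RefSeq gene on the same strand, the 2810013P06Rik and BC048644 starts printed above among them. Their folds ran from 1.95 to 33.4 in the KO list and from 1.59 to 18.5 in the WT list, and 4 peaks of each list had no partner. Over all intronic peaks, 73 in the KO list (5.69%, 4.55 to 7.10) and 60 in the WT list (4.45%, 3.48 to 5.69) lay within another RefSeq gene on the same strand, against 3.07% and 3.18% of other peaks. Without Galnt2l the counts were 54 (4.32%, 3.33 to 5.60) and 45 (3.41%, 2.56 to 4.53). By the gene spans of the lists themselves the order turned round, with 13 intronic peaks in the KO list (1.01%) and 21 in the WT list (1.56%) inside another gene, against 3.37% and 3.38% of other peaks. Galnt2l gave none of these, as the counts were 13 and 21 without it too. The part of genes drawn inside such long spans in the shares of other peaks was not tested. Peaks on the opposite strand of the same list met 77 intronic peaks (6.01%) in the KO list and 91 (6.76%) in the WT list, against 8.95% and 9.32% of other peaks. RNA was strand-marked per the labels' protocols.

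**Figure D4:**
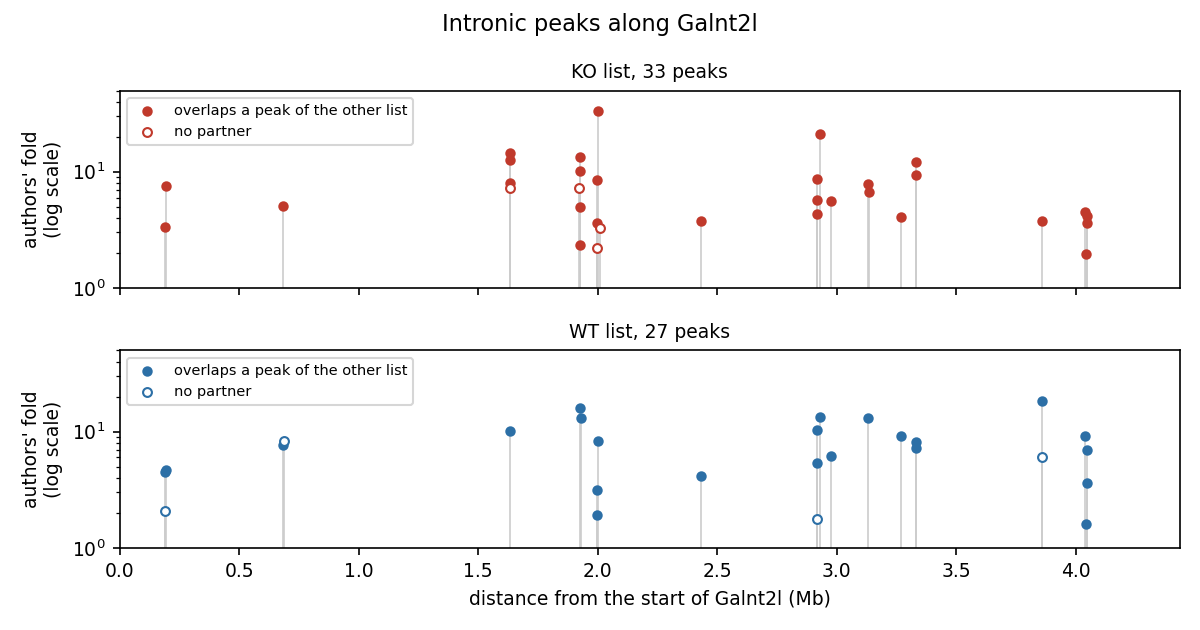
Fold (log scale) of the intronic peaks of Galnt2l against their distance from the start of the gene in Mb, with the KO list above and the WT list below; filled points overlap a peak of the other list and open points have no partner. The 33 KO and 27 WT peaks fall in the same few clusters along the span, and 4 in each list are open.

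After Galnt2l the named genes with the most intronic peaks were Ccdc30 with 7 in each list, Zscan18, a zinc finger gene, with 5 in the KO list and 6 in the WT list, and Tulp4, a relative of the tubby protein, with 6 and 4. Brinp3 had 5 and 4. Fgfr2, a receptor for fibroblast growth factors, had 3 and 6, and its span of 2960900 bases is also long in the authors' annotation. In Ccdc30, 6 of the 7 peaks of the KO list and all 7 of the WT list had a partner, and KO folds ran from 3.16 to 15.3 while WT folds ran from 2.31 to 10.6. The 5 KO and 4 WT peaks of Brinp3 lay side by side (chr1:146725671-146729090 over both lists). Their folds ran from 6.32 to 11.7 in the KO list and from 10.2 to 18.5 in the WT list, and the lowest log10 FDR among them was -3.83, in the WT list.

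Gene lists for the cell types and pathways of the testis were read against the shares over all genes, 6.07% in the KO list and 6.32% in the WT list. Hosts were counted at any listed FDR, so some rest on peaks with an FDR above 0.05. Sperm tail and cilium genes had an intronic peak in 3 of 26 members with a peak in the KO list (11.5%) and 14 of 35 in the WT list (40.0%). The KO hosts were Ccdc39, Dnah7b and Ift80, which encode parts of the ciliary ruler, a dynein arm and the intraflagellar transport machine, and all 3 were WT hosts too. The other WT hosts were Ak7, Cfap65, Cfap69, Dnah10, Dnah8, Hydin, Odf2, Rsph9, Spag16, Spag17 and Spag6l, genes of the axoneme and the outer dense fibres. WT-only intronic peaks lay in 11 of the 14, beside 480 of all 1034 WT hosts. The WT-only peaks of Cfap69, Odf2 and Dnah7b had an FDR above 0.05. The FDR of these hosts was modest, since 2 of the 14 had an intronic peak at 1e-05 or below, and 0 had a WT-only one. The list as a whole had fewer members with any peak in the KO list (26) than in the WT list (35). Of its 14 WT hosts, 9 had any peak in the KO list, whereas over all 1034 WT hosts 83 had none there. The members of this list are also long, with a median of 95794 bases against 17829 bases for all genes with a peak. In whole testis, fewer cells of a type and less RNA per cell cannot be told apart, and the part of either in this count was not tested.

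Single members show the range. Ccdc39 had a peak over the same 151 bases in both lists (chr3:33825197-33825347, minus strand), with fold 4.36 in the KO list and 2.65 in the WT list, and a KO-only peak of fold 9.92. Dnah7b had a shared peak of fold 20.8 in the KO list (chr1:46270927-46271167, plus strand) and 21.3 in the WT list, and 1 peak without a partner in each list. Both Dnah7b peaks without a partner had an FDR above 0.05. Spag17, a central-pair protein of the axoneme, had a WT-only peak of fold 15.7 with log10 FDR -3.07. Ak7, an adenylate kinase of motile cilia, had 2 WT-only intronic peaks, of folds 1.91 and 4.17, and no peak at all in the KO list.

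Splicing factors had an intronic peak in 8 of 36 members in the KO list (22.2%) and 6 of 39 in the WT list (15.4%). Hnrnpl, Snrnp70, Srsf10, Srsf6 and U2af2 were hosts in both lists, Hnrnpu, Srsf2 and Srsf5 in the KO list alone, and Srsf11 in the WT list alone. The 4 genes with an intronic peak in 1 list alone had a peak of another class in the other list. Their median length, 20110 bases for the whole list, was near that of all genes. Of the shared peaks, besides Srsf6 and Hnrnpl, Snrnp70, which encodes a protein of the U1 particle, had fold 2.88 in the KO list and 2.59 in the WT list. Srsf10 had 1.74 and 1.63, and U2af2, a subunit of the factor that reads the 3' splice site, had 2.00 and 2.14. The peaks without a partner were Srsf2 at fold 1.84 and Srsf5 at 7.22 in the KO list, besides Hnrnpu, and Srsf11 at 1.48 in the WT list. The Srsf5 peak had an FDR above 0.05 (log10 FDR -0.572).

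Long neuronal, adhesion and signalling genes, listed for their length, had an intronic peak in 10 of 38 members in the KO list (26.3%) and 7 of 42 in the WT list (16.7%). The 7 WT hosts include Spag16, which is counted among the sperm tail genes as well. Ctnna2, Ctnna3, Nav2 and Wwox were hosts in both, but the KO peak of Nav2 and the WT peak of Wwox had an FDR above 0.05. Nrxn2, a presynaptic adhesion gene, had fold 17.6 in the KO list with log10 FDR -7.67, and the WT peak that it met was annotated as coding exon. Ctnna3, an alpha-catenin, had a peak of fold 9.92 in the KO list and 12.0 and 17.6 in the WT list, the last with log10 FDR -6.93 and a coding exon partner in the KO list.

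Meiotic recombination genes had an intronic peak in 4 of 36 members in the KO list (11.1%) and 5 of 34 in the WT list (14.7%). Among them, Shoc1 and Atr were hosts in both, Mus81 in the KO list alone, and Brip1 in the WT list alone. Synaptonemal complex and cohesin genes had 0 of 21 in the KO list and 1 of 20 in the WT list, Stag2, with fold 3.01. The Stag2 peak had an FDR above 0.05, as had the Mus81 peak. Among pachytene regulators the counts were 0 of 18 in the KO list and 1 of 18 in the WT list, Tcfl5 with fold 5.86. Spermatogonial genes had 0 of 24 and 0 of 25, spermiogenesis genes 0 of 17 in each list, and Sertoli cell markers 0 of 18 and 0 of 22.

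Of the m6A machinery, 2 of 33 members in the KO list and 2 of 34 in the WT list had an intronic peak. Ythdf2, a cytoplasmic reader that sends RNA to decay, had fold 6.32 in the KO list and 10.2 in the WT list near its start. Ythdc1 had a KO-only peak of fold 2.09, and Hnrnpa2b1 had 2 WT intronic peaks, of folds 1.24 and 2.68, the first with a 3' UTR partner in the KO list. Genes of RNA decay and polyadenylation had 1 of 32 in the KO list and 3 of 31 in the WT list. Cnot4 was a host in both (4.51 in KO, 4.63 in WT), and Cnot3 and Cstf3 (13.0) in the WT list. Both Cnot4 peaks and the Cnot3 peak had an FDR above 0.05. The piRNA list had 1 of 17 and 1 of 15, Tdrd12, whose intronic peaks, its sole peaks, had folds 9.02 and 7.07 in the KO list and 11.1 and 2.36 in the WT list. Chromatin regulators had 5 of 54 and 4 of 53, with Brd2 shared (2.06 in KO, 2.92 in WT), and the lone low-FDR peak was WT-only, in Chd8. The list of Leydig, peritubular, endothelial and immune markers had 1 of 13 and 1 of 15, Cyp11a1, and housekeeping genes had 1 of 11 in each list, Gusb (6.62 in KO, 4.26 in WT).

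**Figure D5:**
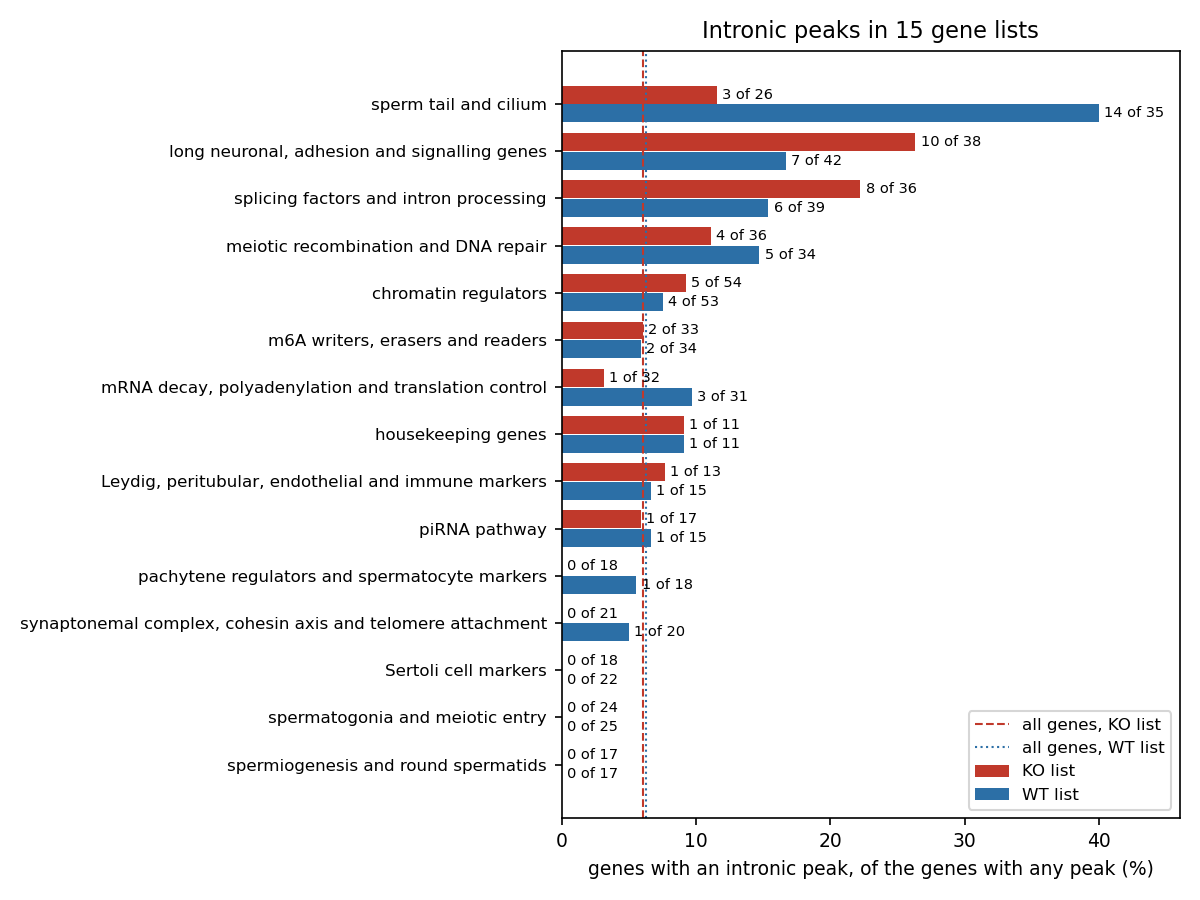
Genes with an intronic peak as a percentage of the list members with any peak, for 15 gene lists, with the KO list above the WT list in each pair; labels give the counts and vertical lines the share over all genes (6.07% in KO, 6.32% in WT). Sperm tail and cilium genes stand at 11.5% in KO and 40.0% in WT, and the lists for spermatogonia, spermiogenesis and Sertoli cells are at 0 in both.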

How the data were processed

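MeRIP-seq libraries came from Alkbh5 knockout (KO) and WT testes, with IP and input libraries in 3 replicates each. Sample titles gave the groups and replicate numbers. Each genotype has 1 deposited list of peaks, IP against input. The submitters' processing notes name fastp, FastQC, HISAT2, HOMER and StringTie, without versions, and the build GRCm38. The peak caller, and whether replicates were pooled, are not given in the sources used here. Each peak has, per the file headers, a fold, which is the authors' linear ratio of IP over input. The deposited log10 p-value and log10 FDR, per the file headers, were handled as a score, since the smallest run off the scale. Gene spans and classes are the authors'.

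Tests across libraries need values per library, so none was run. The genotypes were compared by differences of shares between the lists. Peaks were matched by at least 1 base on the same strand, with introns inside spans included, in Python 3.11.15 with pandas 2.3.3. Matching was tested on simulated data. Shares carry Wilson and differences Newcombe 95% intervals, and a difference of 2 differences combined both. Depth per sample is unknown. Positions count from 1. RefSeq tables (GRCm38.p6) gave gene spans, promoter windows and miRNA hairpins. They matched the symbols of 95.2% of intronic KO peaks and 96.8% of intronic WT peaks.

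The members and the 15 lists (539 genes) were chosen with earlier results of these data known. Clone-type names aside, the genes named were the 6 of highest fold among KO-only and among WT-only peaks with an FDR of 1e-05 or below (5 existed in KO), the 6 shared ones of highest KO fold, the 6 genes with most intronic peaks, and up to 2 genes of lowest FDR per list. Other genes were named as members of a list or after their values were seen, and some genes that the rule takes are not reported here. Alternatives were FDR limits, stricter and looser matching, equal list lengths and the leaving out of clone-type names, of opposite-strand peaks and of spans over 1000 bases.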

Additional observations from a re-analysis of the deposited data

How the results depend on the processing

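No paired analysis was possible because the lists give 1 value per peak and genotype and none per library. Leaving out replicates was not run for the same reason, and a check against RefSeq exons was not run because exon positions were not used here. With an FDR of 0.05 or below in both lists, the intronic share was 3.10% in KO and 3.35% in WT, and 26.7% of KO and 33.6% of WT intronic peaks had no partner. With 1e-05 or below in both lists these values were 1.54%, 1.89%, 15.8% and 32.1%, the KO minus WT difference in intronic share was -0.35 points, its interval now without 0, the KO excess over other peaks without a partner was 3.31 points with 0 in its interval, and the intronic share of KO-only minus WT-only peaks was -2.73 points. Without clone-type names the intronic share was 4.56% in KO and 4.81% in WT, and the KO-only minus WT-only difference was -1.41 points, its interval now without 0. Without spans over 1000 bases the intronic share was 4.98% and 5.01%, 40.5% of KO and 44.6% of WT intronic peaks had no partner, the KO-only minus WT-only difference was 0.0186 points, and the low-FDR KO minus WT difference was -5.85 points. Requiring 50% of both peaks left 59.6% and 61.7% without a partner, and allowing 200 bases left 30.0% and 33.4%, with a KO-only minus WT-only difference of 0.0640 points. With lists cut to equal length the difference in intronic share was 0.0155 points and the KO-only minus WT-only difference 0.0368 points. Causes of these shifts were not tested. The WT excess over other peaks stayed on its side of 0 under all 11 alternatives, 2 of which were chosen after seeing the data (without Galnt2l, and without peaks inside another gene). All alternatives of the low-FDR difference were chosen likewise, and 9 of 10 left its interval without 0.

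Depth and replicate error are unknown, so a peak missing from a list is not shown to be unmethylated there.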
